A study of Mus musculus with 15 samples.

Results

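The genes described here are 9 aldo-keto reductases of the mouse liver: Akr1a1, Akr1b7, Akr1b8, Akr1c6, Akr1c13, Akr1c14, Akr1c18, Akr1c19 and Akr1c20. Their rows were taken by symbol and make up 9 of the 23509 genes in both deposited expression tables. All 9 had a mean above the filter of 0.5 FPKM (fragments per kilobase of gene, scaled to the library, a level per length) in every comparison. The study measured liver RNA by bulk sequencing in male mice of 2 genotypes and 2 diets, to ask how loss of aldehyde dehydrogenase 2 alters alcohol-associated liver fibrosis.

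The 15 libraries formed 4 groups. Ethanol-fed Aldh2-/- mice gave 4 libraries and ethanol-fed wild-type (WT) mice 5, while pair-fed Aldh2-/- and pair-fed WT mice gave 3 each. Pair-fed animals received a control diet without ethanol in place of the ethanol diet. The labelled strain was C57BL/6, the given age was 8 to 10 weeks, and the Aldh2-/- mice were 1 commercial stock line. By the annotated treatment all 4 groups also received carbon tetrachloride (CCl4), a liver toxin that causes fibrosis, injected into the peritoneum 2 times each week over 8 weeks, and livers were taken 24 h after the last injection. The sample titles name CCl4 for the ethanol groups only. Each library is called below by genotype and its number in the title (WT 7). The labels do not say whether each library came from its own animal, so p-values measure the spread between these libraries only. In bulk tissue, fewer cells of a type and less RNA per cell cannot be told apart.

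Aldo-keto reductases use NADPH to reduce carbonyl groups of sugars, steroids, lipid aldehydes and drugs to alcohols. In liver they act beside the aldehyde dehydrogenases, which oxidise aldehydes to acids, and the hepatic steroid-metabolising members act on steroid hormones and bile acid precursors. Akr1a1 is the aldehyde reductase that makes gulonate from glucuronate on the way to vitamin C. Akr1b7 and Akr1b8 belong to the aldose reductase family, Akr1b7 being known from the adrenal cortex and vas deferens. The Akr1c members are hydroxysteroid dehydrogenases: Akr1c6 makes testosterone from androstenedione, Akr1c14 reduces dihydrotestosterone and Akr1c18 inactivates progesterone.

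The genes lie in 3 places of the genome (GRCm38, GENCODE vM21). Akr1a1 stands alone on chromosome 4 (chr4:116636510-116651680, minus strand). Akr1b8 (chr6:34354119-34368463) and Akr1b7 (chr6:34412334-34423142), both on the plus strand, sit in a cluster of 4 aldo-keto reductase genes that spans 120.7 kb. The 6 Akr1c members share a 560.2 kb cluster on chromosome 13 with 3 further genes of the superfamily, Akr1c12, Akr1c21 and Akr1e1. In that cluster Akr1c14 (chr13:4049011-4090688), Akr1c13 (chr13:4191150-4205596), Akr1c19 (chr13:4228700-4252843) and Akr1c6 (chr13:4434306-4457877) are on the plus strand. Akr1c18 (chr13:4132615-4150654) and Akr1c20 (chr13:4486849-4523345) are on the minus strand.

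The 6 Akr1c genes are related in sequence, which bears on how far reads can be assigned between them. The first 60 bases of each coding sequence, from the start codon, are shown because the 6 results below differ although the sequences are related. Capitals mark bases that differ from the commonest base at that position, or stand where no single base is commonest, and 26 of the 60 positions hold the same base in all 6.
Akr1c6: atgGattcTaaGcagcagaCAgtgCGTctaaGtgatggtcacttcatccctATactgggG
Akr1c13: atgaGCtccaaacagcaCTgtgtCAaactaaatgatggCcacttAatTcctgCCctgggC
Akr1c14: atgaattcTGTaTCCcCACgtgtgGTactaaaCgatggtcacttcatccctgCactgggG
Akr1c18: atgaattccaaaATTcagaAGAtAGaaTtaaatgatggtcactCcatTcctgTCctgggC
Akr1c19: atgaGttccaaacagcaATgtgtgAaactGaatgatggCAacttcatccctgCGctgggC
Akr1c20: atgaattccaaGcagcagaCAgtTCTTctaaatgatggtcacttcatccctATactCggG
Over the whole coding sequence of 972 bases, identity between the 6 genes ran from 72.6% to 92.3%, with a median of 74.6% over 15 pairs, and Akr1c6 and Akr1c20 were the closest pair. Against the other 3 members, the Akr1c genes were 53.1% to 57.2% identical. The deposited counting could still separate most of them: of all stretches of 150 bases, the read length, in the main transcripts, none of Akr1a1, Akr1b7, Akr1b8, Akr1c6, Akr1c18 or Akr1c20 recurred in another gene. For Akr1c13, 7.10% of stretches recurred in Akr1c12, its nearest relative outside the 9 (96.2% identical in coding sequence). For Akr1c14 and Akr1c19, 2.80% and 2.50% recurred in the loci annotated as Gm18857 and Marcksl1-ps4. Values of Akr1c13 and Akr1c12 are therefore uncertain where reads fell in shared stretches.

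Akr1c13 and Akr1c12 were alike upstream too. RefSeq promoter sequences (GRCm38.p6) were matched for 8 of the 9 members. The pair is shown up to the first annotated exon base, with capitals for bases that differ, because these were the most similar promoters among the aldo-keto reductase genes compared. Akr1c13 is chr13:4190937-4191149 on the plus strand and Akr1c12 is chr13:4279434-4279649 on the minus strand.
Akr1c13: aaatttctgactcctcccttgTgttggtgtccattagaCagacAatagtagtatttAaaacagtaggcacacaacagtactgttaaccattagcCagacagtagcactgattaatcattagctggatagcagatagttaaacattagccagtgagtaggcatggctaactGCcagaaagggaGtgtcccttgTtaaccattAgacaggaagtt
Akr1c12: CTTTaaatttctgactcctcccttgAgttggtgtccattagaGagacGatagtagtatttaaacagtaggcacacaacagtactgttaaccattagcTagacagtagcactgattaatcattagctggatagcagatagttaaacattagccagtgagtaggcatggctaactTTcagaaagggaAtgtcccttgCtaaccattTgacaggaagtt
They were identical at 203 of 217 aligned positions (93.6%). Over the untrimmed 250 bases they shared 92.5%, while the median over 136 pairs of promoters in the superfamily was 49.1%. The neighbours Akr1b8 and Akr1b7 shared 49.5% over 250 bases. They are shown next, up to the first annotated exon base, since the expression of the pair differed in the data below. Akr1b8 is chr6:34353896-34354118 and Akr1b7 is chr6:34412112-34412333, both on the plus strand, with capitals for the motifs found.
Akr1b8: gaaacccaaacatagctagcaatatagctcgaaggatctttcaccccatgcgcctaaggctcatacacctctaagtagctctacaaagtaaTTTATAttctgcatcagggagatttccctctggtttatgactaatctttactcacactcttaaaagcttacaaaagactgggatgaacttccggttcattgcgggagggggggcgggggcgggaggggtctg
Akr1b7: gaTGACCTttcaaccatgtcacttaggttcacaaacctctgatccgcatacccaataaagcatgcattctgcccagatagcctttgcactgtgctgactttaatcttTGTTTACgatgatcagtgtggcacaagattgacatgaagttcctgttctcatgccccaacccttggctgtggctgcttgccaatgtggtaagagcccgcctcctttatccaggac
In the 250 bases before the RefSeq start, both strands were searched. The FOXA motif TGTTTAC was found in Akr1b7 and Akr1c13 (in 3.17% of 32851 promoters of the table), the nuclear receptor half-site AGGTCA in Akr1b7 (14.0%) and TATAAA in Akr1b8 and Akr1c6 (12.4%). The Akr1c13 match lies 28 to 22 bases before the RefSeq start, inside the first exon as GENCODE annotates it, and so beyond the end of the stretch printed. The core of the antioxidant response element, TGACNNNGC (10.2%), the AP-1 motif TGANTCA (6.75%) and the C/EBP motif TTGCNNAA (9.56%) were found in none of the 8. A match describes the letters only.

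The targeted gene followed the genotype labels in each library. Aldh2 lay between 6.57 and 11.5 FPKM in the 7 Aldh2-/- libraries and between 277 and 688 FPKM in the 8 WT libraries. Low values in the tables put relative depth at 90.0% to 111.0% of the mean, and the mitochondrial genome accounted for 6.68% to 24.2% of summed FPKM. That share was highest in the pair-fed WT libraries (15.2% to 24.2%) and, among ethanol-fed livers, in Aldh2-/- 90 (18.2%) and WT 5 (13.6%). All-gene values moved too: the log2 change had an all-gene median of 0.26 for genotype under pair-feeding and -0.22 for the difference between the genotype effects.

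Akr1c6 and Akr1a1 were the most abundant of the 9 in each group, with mean levels between 183 and 383 FPKM. Their ranges overlapped in 3 groups and were apart in pair-fed Aldh2-/- livers, where Akr1c6 was the higher. In ethanol-fed WT livers Akr1c6 made up 45.7% and Akr1a1 30.8% of the summed level of the 9 genes, followed by Akr1c20 (6.02%), Akr1c13 (5.62%), Akr1c14 (4.59%) and Akr1c19 (4.52%). The ranges of each of these 4 overlapped with that of the next. Akr1b7 (1.75%), Akr1c18 (0.764%) and Akr1b8 (0.309%) came last. In ethanol-fed Aldh2-/- livers, by comparison, the 7 less abundant genes lay between 10.1 and 19.1 FPKM in the mean, and each overlapped with its neighbour in the order. In pair-fed Aldh2-/- livers Akr1c18 came next after Akr1a1, at 7.07% of the sum.

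The summed level of the 6 Akr1c members differed with genotype in opposite ways on the 2 diets. It was 253 ± 46.4 FPKM in ethanol-fed Aldh2-/- and 563 ± 121 FPKM in ethanol-fed WT livers (means ± SD, n = 4 and 5), with ranges of 194 to 307 and 404 to 723 FPKM that did not overlap. Under pair-feeding the order turned, with 551 ± 85.1 FPKM in Aldh2-/- and 342 ± 73.3 FPKM in WT livers (n = 3 and 3). Akr1c6 alone supplied 61.3% to 76.2% of this sum in each library. The sum was not tested. After median-ratio rescaling the Akr1c6 change under pair-feeding was not called (log2 change 0.35, adjusted p = 0.402 by limma).

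**Figure D1:**
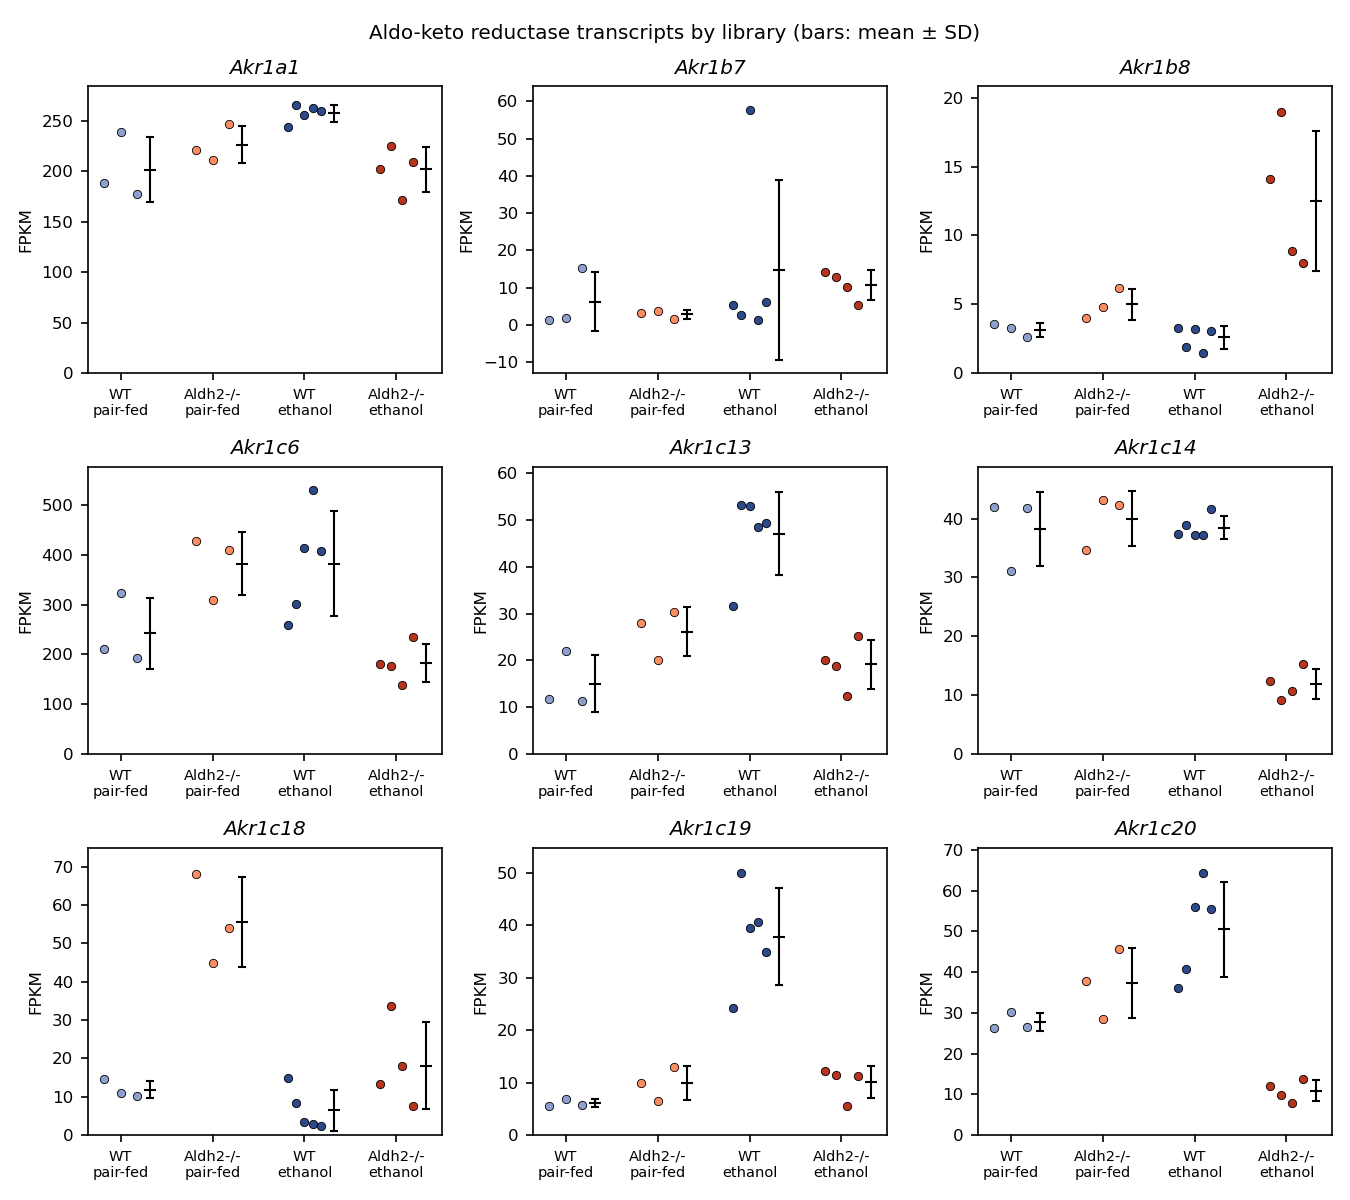
FPKM (y axis, linear) of each aldo-keto reductase in the 15 libraries, by genotype and diet. Points are libraries and bars are means ± SD (n = 3, 3, 5 and 4 from left to right). Akr1c14 and Akr1c20 are low in the 4 ethanol-fed Aldh2-/- libraries alone, Akr1c18 is high in the 3 pair-fed Aldh2-/- libraries, and the Akr1b7 panel is stretched by WT 7 at 57.7 FPKM.

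Under ethanol, the loss of Aldh2 was compared first. Of the 9 genes, 2 were higher and 6 lower in Aldh2-/- than in WT livers. Over all 11013 genes tested 21.5% were called higher and 15.7% lower (limma, two-sided, on the log2(FPKM + 1) scale, at a Benjamini-Hochberg adjusted p under 0.05). After median-ratio rescaling the split of all calls turned from 2365 higher and 1733 lower to 1958 higher and 2442 lower. The median log2 change of the 9 was -1.04, beside 0.04 over all genes tested.

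Akr1a1 had the smallest change of the called genes. Its level was 202, 226, 172 and 209 FPKM in Aldh2-/- 86, 89, 90 and 96. In WT 5, 6, 7, 11 and 12 it was 244, 266, 256, 263 and 259.9 FPKM. All Aldh2-/- libraries lay below all WT libraries, and the log2 change was -0.36 ± 0.10 (SE, adjusted p = 0.022 by limma). The call was lost without Aldh2-/- 86 or without WT 6, 7 or 12, at log2 changes of -0.36, -0.34, -0.36 and -0.35 and adjusted p of 0.0507, 0.0571, 0.0503 and 0.0501 (limma; range over all 21 alternatives 0.0114 to 0.205). It was also lost with a replicate block (adjusted p = 0.0734 by limma) and without WT 7, WT 12 and Aldh2-/- 90 together (log2 change -0.28, adjusted p = 0.205). Under pair-feeding Akr1a1 stood at 221, 211 and 247 FPKM in Aldh2-/- 1, 2 and 9 and at 189, 239 and 178 FPKM in WT 18, 19 and 20. Those groups overlapped, and the log2 change of 0.17 was not called (95% interval -0.16 to 0.51, adjusted p = 0.374).

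Akr1b8, an aldose reductase-like enzyme, rose in Aldh2-/- livers under ethanol. It was at 14.1, 19.0, 8.88 and 8.00 FPKM in Aldh2-/- 86, 89, 90 and 96, but at 3.26, 1.91, 3.20, 1.49 and 3.09 FPKM in WT 5, 6, 7, 11 and 12. The lowest Aldh2-/- library was thus above the highest WT library. The log2 change was 1.87 ± 0.25 (SE, adjusted p = 0.000534 by limma), and all 21 alternatives kept it between 1.65 and 2.20. Under pair-feeding the levels were 3.96, 4.80 and 6.17 FPKM in Aldh2-/- 1, 2 and 9 and 3.58, 3.24 and 2.59 FPKM in WT 18, 19 and 20. These groups did not overlap either, but the call (log2 change 0.52, adjusted p = 0.0483 by limma) was lost in 14 of 17 alternatives, among them each of the 6 that left out 1 library (log2 changes from 0.38 to 0.65). Both counts include the fit without WT 20 more than once. The genotype effect under ethanol exceeded that under pair-feeding by 1.35 on the log2 scale (adjusted p = 0.00949 by limma).

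Its neighbour Akr1b7 varied far more between libraries. In ethanol-fed Aldh2-/- livers it was at 14.3, 13.0, 10.2 and 5.29 FPKM (86, 89, 90 and 96) and in ethanol-fed WT livers at 5.45, 2.61, 57.7, 1.30 and 6.20 FPKM (5, 6, 7, 11 and 12). In pair-fed livers it was at 3.14, 3.89 and 1.50 FPKM in Aldh2-/- 1, 2 and 9 and at 1.37, 1.88 and 15.3 FPKM in WT 18, 19 and 20. WT 7 and WT 20 each stood above all other libraries of both genotypes on their diet. Neither genotype comparison was called: the log2 change was 0.58 under ethanol (95% interval -1.11 to 2.26, adjusted p = 0.582 by limma) and -0.38 under pair-feeding (95% interval -1.87 to 1.11, adjusted p = 0.671). The mean of ethanol-fed WT livers, 14.7 ± 24.1 FPKM (SD, n = 5), was above that of Aldh2-/- livers, 10.7 ± 4.00 FPKM (n = 4), so the difference of mean FPKM and the log2 change differ in sign.

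WT 7 and WT 20 also carried transcripts of the adrenal cortex, the steroid-making gland beside the kidney. Summed over 8 adrenal markers (Cyp11a1, Cyp11b1, Cyp11b2, Cyp21a1, Star, Mc2r, Nr5a1 and Hsd3b1), the level was 193 FPKM in WT 7 and 60.5 FPKM in WT 20. It was 6.87 FPKM in WT 12 and 4.19 FPKM in Aldh2-/- 90, and 0.292 to 2.04 FPKM in the other 11 libraries. Cyp11b1, the enzyme of the last step to corticosterone, was at 21.1 FPKM in WT 7 and 2.75 FPKM in WT 20. Cyp11b1, Mc2r and Nr5a1 were listed at 0 in those other 11 libraries. Akr1cl, an aldo-keto reductase outside the 9, showed the same pattern, with 5.08 FPKM in WT 7, 2.73 FPKM in WT 20 and at most 0.0401 FPKM elsewhere. Without WT 7, the Akr1b7 log2 change under ethanol was 1.32 and was called (adjusted p = 0.0271 by limma; range over all 21 alternatives 0.0271 to 0.892). Without WT 20, the change under pair-feeding was 0.50 and not called (adjusted p = 0.243; range over 17 alternatives 0.243 to 0.93). Without all 4 libraries above 4 FPKM, the change under ethanol was 1.55 (adjusted p = 0.0511). The part of adrenal tissue in the Akr1b7 values was not tested.

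**Figure D2:**
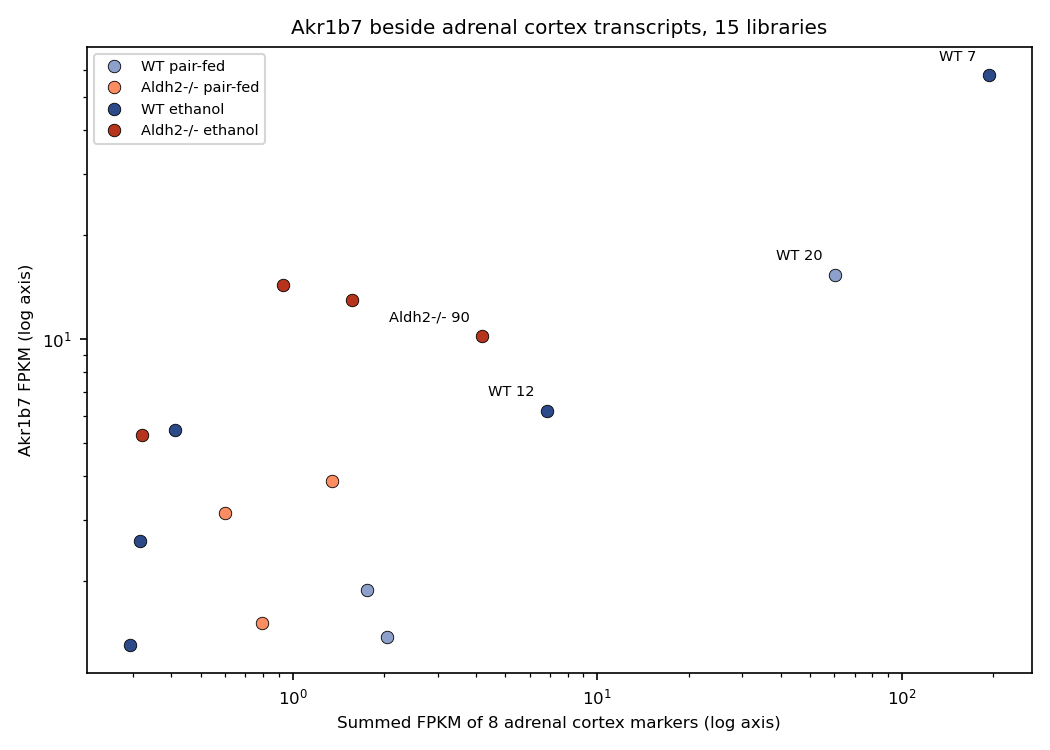
Akr1b7 FPKM (y axis, log scale) against the summed FPKM of 8 adrenal cortex markers (x axis, log scale), 1 point per library, coloured by group. WT 7 at 193 FPKM and WT 20 at 60.5 FPKM of adrenal markers are the highest in Akr1b7, while 3 ethanol-fed Aldh2-/- libraries follow at 10.2 to 14.3 FPKM of Akr1b7.

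In the chromosome 13 cluster, 5 of the 6 Akr1c members fell in ethanol-fed Aldh2-/- livers. Akr1c20 had the largest fall of the 9 genes, from 50.5 ± 11.7 to 10.8 ± 2.62 FPKM (means ± SD, n = 5 and 4). It was at 11.9, 9.81, 7.80 and 13.9 FPKM in Aldh2-/- 86, 89, 90 and 96, against 36.1, 40.7, 56.0, 64.3 and 55.4 FPKM in WT 5, 6, 7, 11 and 12. The groups were well apart, with a log2 change of -2.12 ± 0.20 (SE, adjusted p = 0.00011 by limma). Under pair-feeding Akr1c20 was at 37.8, 28.5 and 45.5 FPKM in Aldh2-/- 1, 2 and 9 and at 26.4, 30.3 and 26.6 FPKM in WT 18, 19 and 20. That difference was not called (log2 change 0.39, 95% interval -0.01 to 0.79, adjusted p = 0.118), except without Aldh2-/- 2 (log2 change 0.57, adjusted p = 0.0443; range over 17 alternatives 0.0443 to 0.846).

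Akr1c14, which reduces dihydrotestosterone, was lower in a single group of the 4. Its levels in ethanol-fed Aldh2-/- livers were 12.4, 9.23, 10.7 and 15.3 FPKM (86, 89, 90 and 96). All other libraries lay between 31.0 and 43.1 FPKM: 37.4, 38.9, 37.3, 37.1 and 41.7 in ethanol-fed WT (5, 6, 7, 11 and 12), 34.6, 43.1 and 42.3 in pair-fed Aldh2-/- (1, 2 and 9) and 41.9, 31.0 and 41.8 FPKM in pair-fed WT (18, 19 and 20). Ethanol-fed WT livers held 38.5 ± 1.93 FPKM (SD, n = 5), a spread smaller than the gap to the Aldh2-/- libraries. The genotype change was -1.63 ± 0.13 under ethanol on the log2 scale (SE, adjusted p = 4.83e-05 by limma) and 0.07 under pair-feeding (95% interval -0.29 to 0.43, adjusted p = 0.752), the latter with its sign reversed after rescaling.

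Akr1c19, a less studied Akr1c dehydrogenase, was high only in ethanol-fed WT livers, at 24.3, 49.9, 39.6, 40.6 and 35.0 FPKM (5, 6, 7, 11 and 12). In ethanol-fed Aldh2-/- livers it was at 12.3, 11.4, 5.57 and 11.3 FPKM (86, 89, 90 and 96). Pair-fed Aldh2-/- 1, 2 and 9 had 9.98, 6.59 and 13.1 FPKM and pair-fed WT 18, 19 and 20 had 5.55, 6.96 and 5.78 FPKM. Every ethanol-fed WT library was therefore above every library of the other 3 groups. Under ethanol the genotype change was -1.82 ± 0.24 (SE, log2, adjusted p = 0.000488 by limma). Under pair-feeding it was 0.58 (95% interval 0.08 to 1.07) and not called (adjusted p = 0.0754), except without Aldh2-/- 2 (log2 change 0.81, adjusted p = 0.0309; range over 17 alternatives 0.0309 to 0.472) and with a replicate block.

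Akr1c13 and Akr1c6 fell under ethanol as well. Akr1c13 was at 20.2, 18.8, 12.3 and 25.2 FPKM in Aldh2-/- 86, 89, 90 and 96 and at 31.6, 53.2, 52.9, 48.6 and 49.3 FPKM in WT 5, 6, 7, 11 and 12 (log2 change -1.27 ± 0.21, SE, adjusted p = 0.00119 by limma). Akr1c6, the most abundant of the cluster, was at 182, 176, 139.6 and 234 FPKM against 259, 302, 413, 529.6 and 408 FPKM in the same order of libraries (log2 change -1.04 ± 0.22, adjusted p = 0.00418). For both genes the genotypes did not overlap under ethanol. The Akr1c6 call was lost without the 4 libraries highest in adrenal markers (log2 change -0.82, adjusted p = 0.0837; range over 21 alternatives 0.0014 to 0.0837). Akr1c12, the near copy of Akr1c13, at 26.7 to 31.7 FPKM in Aldh2-/- and 45.9 to 53.8 FPKM in WT livers, fell too (log2 change -0.78, adjusted p = 0.000361).

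Under pair-feeding Akr1c13 was at 27.9, 20.2 and 30.3 FPKM in Aldh2-/- 1, 2 and 9 and at 11.8, 22.0 and 11.2 FPKM in WT 18, 19 and 20. Akr1c6 was at 428, 310.1 and 409.5 FPKM in the former and at 210.1, 324 and 194 FPKM in the latter. In both genes WT 19 lay above the lowest Aldh2-/- library, so the groups overlapped. The log2 changes of 0.81 and 0.68 were called (adjusted p = 0.0488 and 0.0482 by limma), but each call was lost in 11 of 17 alternatives. Both counts include the fit without WT 20 more than once, since the other libraries with adrenal transcripts were not pair-fed. Leaving out Aldh2-/- 1, Aldh2-/- 9, WT 18 or WT 20 gave log2 changes of 0.75, 0.69, 0.67 and 0.64 for Akr1c13 and of 0.59, 0.62, 0.59 and 0.54 for Akr1c6, none of them called.

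Akr1c18, the progesterone-inactivating enzyme, was the exception in the cluster. In pair-fed Aldh2-/- 1, 2 and 9 it stood at 67.9, 44.8 and 53.9 FPKM, against 14.5, 10.9 and 10.2 FPKM in pair-fed WT 18, 19 and 20. All 3 Aldh2-/- libraries were above all WT libraries, with a 4.69-fold higher mean and a log2 change of 2.13 ± 0.19 (SE, adjusted p = 0.00204 by limma), and the call held in all 17 alternatives. Among these the fit without WT 20 is counted more than once. Relative to the all-gene median of 0.26 the change was 1.88. Under ethanol Akr1c18 was at 13.2, 33.7, 18.1 and 7.44 FPKM in Aldh2-/- 86, 89, 90 and 96 and at 14.99, 8.39, 3.38, 2.84 and 2.42 FPKM in WT 5, 6, 7, 11 and 12. There the ranges overlapped, since WT 5 and WT 6 lay above the lowest Aldh2-/- library. The log2 change of 1.45 ± 0.50 was called (adjusted p = 0.0416), but leaving out Aldh2-/- 86, 89 or 90 or WT 7, 11 or 12 ended the call, with log2 changes of 1.53, 1.10, 1.39, 1.33, 1.28 and 1.24. As a share of the summed Akr1c level, Akr1c18 took 9.06% to 11.2% in pair-fed Aldh2-/- and 2.56% to 4.67% in pair-fed WT livers, and 2.42% to 13.0% against 0.392% to 3.71% under ethanol.

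In all, 4 of the 9 genes (Akr1b8, Akr1c6, Akr1c13 and Akr1c18) were called higher and none lower in pair-fed Aldh2-/- livers, beside 26.0% of 11138 genes called higher and 2.41% called lower. The median log2 change of the 9 was 0.52 and that of all genes 0.26. After median-ratio rescaling the calls over all genes turned from 2894 higher and 268 lower to 261 higher and 386 lower, and of the 9 only Akr1c18 was called.

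**Figure D3:**
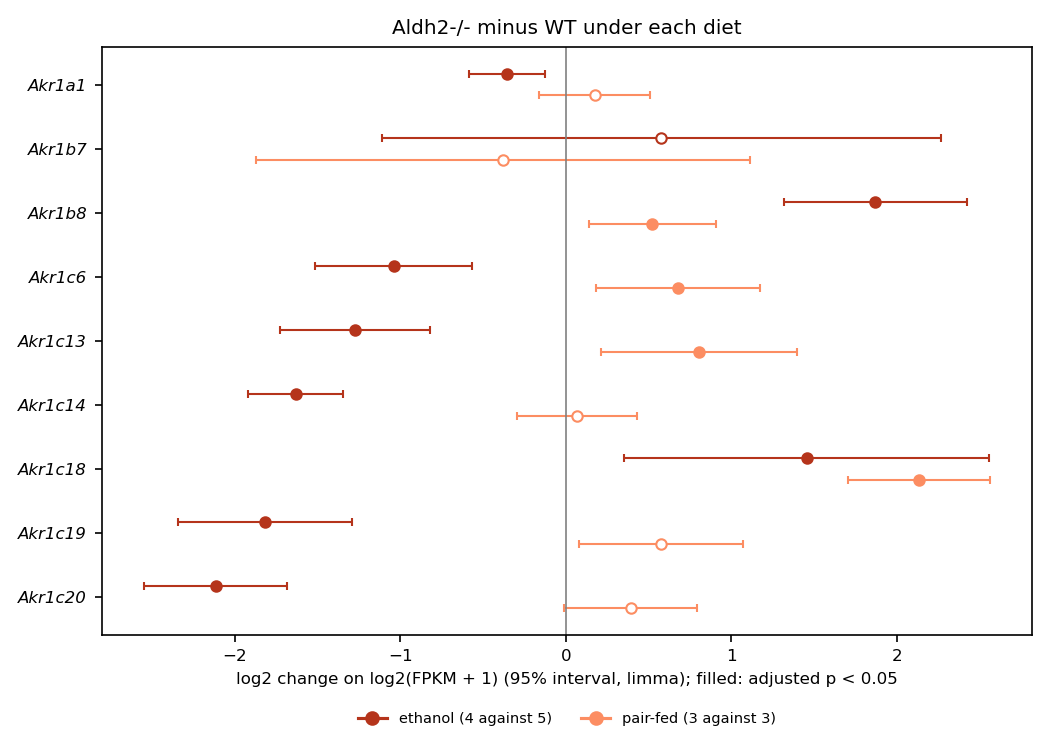
Log2 change of each gene in Aldh2-/- against WT livers (x axis, log2(FPKM + 1) scale) under ethanol (4 against 5 libraries) and pair-feeding (3 against 3), with 95% intervals from limma and filled points for adjusted p under 0.05. Akr1c6, Akr1c13, Akr1c14, Akr1c19 and Akr1c20 lie below 0 under ethanol (-1.04 to -2.12) and not under pair-feeding, while Akr1b8 and Akr1c18 lie above 0 on both diets.

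The difference between the genotype effects on the 2 diets was tested in a fit of all 4 groups, in which an offset between the deposited tables cancels. It was negative and called for 6 genes and positive for 1, beside 29.0% of 11157 genes called lower and 8.06% called higher (1782 lower and 1383 higher after median-ratio rescaling, from 3235 and 899). The 9 genes had a median of -1.70 and all genes one of -0.22. The most negative was Akr1c20 at -2.51 (95% interval -3.13 to -1.88, adjusted p = 8.16e-05 by limma), then Akr1c19 at -2.39, Akr1c13 at -2.08, Akr1c6 at -1.72 and Akr1c14 at -1.70. These 5 calls held in all 26 alternatives. Akr1a1 was at -0.53 (adjusted p = 0.0246), a call lost without Aldh2-/- 9, WT 18 or WT 20 (log2 differences -0.47, -0.49 and -0.45), after median-ratio rescaling (-0.32), with a replicate block (-0.53) and without the 2 or 4 libraries highest in adrenal markers (-0.45 and -0.37). Akr1b8 was the positive one. Akr1c18 was at -0.68 (95% interval -2.14 to 0.78, adjusted p = 0.449) and Akr1b7 at 0.96 (95% interval -1.59 to 3.50, adjusted p = 0.544), so no difference between diets was called for either.

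The diet comparisons set ethanol against pair-feeding within a genotype. Diet coincides with the deposited table, so an effect of the table and of diet cannot be told apart in them. The sample titles name CCl4 for the ethanol groups only. If the titles hold, CCl4 coincides with diet too, also in the difference between the genotype effects. Both diet comparisons use the same groups as the genotype comparisons. In WT livers 5 of the 9 genes were higher under ethanol and none lower, beside 29.2% of genes called higher and 11.9% called lower (2531 higher and 2010 lower after median-ratio rescaling, from 3258 and 1326). Akr1c19 had the largest rise, 37.9 ± 9.33 against 6.10 ± 0.757 FPKM (means ± SD, n = 5 and 3; log2 change 2.42, adjusted p = 8.23e-05 by limma). Akr1c13 rose from 15.01 ± 6.09 to 47.1 ± 8.94 FPKM (log2 change 1.63, adjusted p = 0.000317) and Akr1c20 from 27.8 ± 2.18 to 50.5 ± 11.7 FPKM (log2 change 0.81, adjusted p = 0.00581). The Akr1c20 call was lost without the 4 libraries highest in adrenal markers (log2 change 0.67, adjusted p = 0.083; range over 20 alternatives 0.000994 to 0.083). For each of these 3 genes and for Akr1a1 no ethanol-fed WT library was as low as a pair-fed one, but the share of all genes with such a gap was not counted. The calls of Akr1c6 (log2 change 0.65, adjusted p = 0.0381) and Akr1a1 (0.36, adjusted p = 0.0228) were lost more often: the former was lost in 11 of 20 alternatives, among them without WT 7, 11, 12, 18 or 20 (0.61, 0.52, 0.61, 0.56 and 0.51), and the latter in 6 of 20, among them without WT 18 or WT 20 (0.32 and 0.28).

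The other 4 genes were not called between the diets in WT livers. Akr1c14 was at 38.5 ± 1.93 against 38.2 ± 6.23 FPKM (log2 change 0.02, 95% interval -0.29 to 0.33) and Akr1b8 at 2.59 ± 0.831 against 3.14 ± 0.503 FPKM. Akr1c18 was at 6.40 ± 5.37 under ethanol against 11.9 ± 2.32 FPKM (log2 change -1.05, 95% interval -2.06 to -0.05, adjusted p = 0.0869 by limma). Without WT 5, the ethanol-fed WT library highest in Akr1c18, its change was -1.40 and was called (adjusted p = 0.0119; range over 20 alternatives 0.0119 to 0.414). Akr1b7 had a log2 change of 0.63 (95% interval -1.13 to 2.38), which became -0.12 without WT 7.

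In Aldh2-/- livers 1 of the 9 was higher under ethanol and 4 were lower, beside 17.6% of genes called higher and 29.3% called lower (2408 higher and 2710 lower after median-ratio rescaling, from 1967 and 3264). Akr1c6 and Akr1c20 were called in both genotypes, with opposite signs. Akr1c14 fell from 40.0 ± 4.69 to 11.9 ± 2.60 FPKM (means ± SD, n = 3 and 4; log2 change -1.68, adjusted p = 1.15e-06 by limma) and Akr1c20 from 37.3 ± 8.56 to 10.8 ± 2.62 FPKM (log2 change -1.69, adjusted p = 1.96e-05). Akr1c6 fell from 382 ± 63.3 to 183 ± 39.1 FPKM (log2 change -1.07, adjusted p = 0.00231), and Akr1c18 from 55.5 ± 11.7 to 18.1 ± 11.3 FPKM (log2 change -1.73, adjusted p = 0.00965). Akr1b8 rose from 4.98 ± 1.11 to 12.5 ± 5.09 FPKM (log2 change 1.11, adjusted p = 0.00248). In all 5 of these genes the libraries of both diets were apart, and the calls held in all 19 alternatives. The share of all genes apart in this way was not counted. Akr1c19 was at 10.1 ± 3.08 under ethanol and 9.88 ± 3.24 FPKM under pair-feeding (log2 change 0.03, 95% interval -0.54 to 0.59), Akr1c13 at 19.1 ± 5.28 against 26.2 ± 5.31 FPKM and Akr1a1 at 202 ± 22.6 against 227 ± 18.2 FPKM. Akr1b7 was higher in each ethanol-fed than in each pair-fed Aldh2-/- library, but the log2 change of 1.58 was not called in the fit of all groups (adjusted p = 0.146). It was called in a fit of these 2 groups alone (adjusted p = 0.00525) and without WT 7 and WT 20 (adjusted p = 0.00519; range over 19 alternatives 0.00519 to 0.313), which add to the spread that the groups share.

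**Figure D4:**
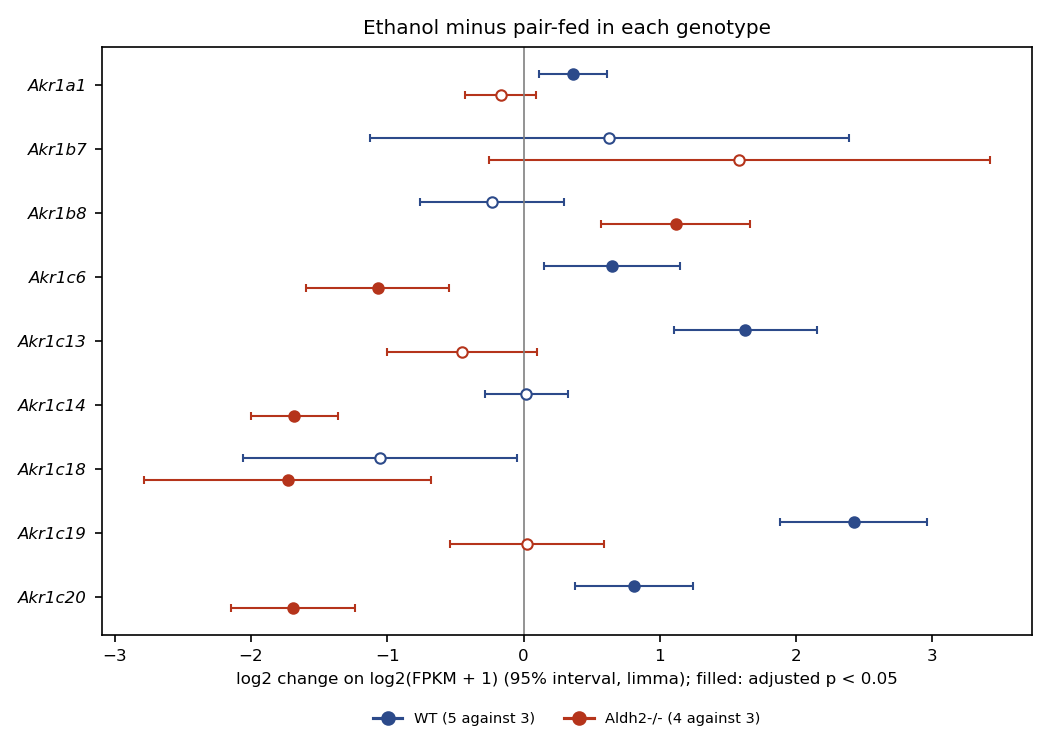
Log2 change of each gene between ethanol-fed and pair-fed livers (x axis, log2(FPKM + 1) scale) in WT (5 against 3 libraries) and Aldh2-/- mice (4 against 3), with 95% intervals from limma and filled points for adjusted p under 0.05. Akr1c13 and Akr1c19 are called higher in WT (1.63 and 2.42), Akr1c14 is called lower in Aldh2-/- (-1.68), and Akr1c6 and Akr1c20 lie on opposite sides in the genotypes.

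The rest of the superfamily was measured in the same libraries. Of 14 further aldo-keto reductase symbols, 11 were in the tables. Under ethanol 7 of these passed the filter, of which 2 were higher and 4 lower in Aldh2-/- livers, beside 21.5% and 15.7% of all genes, with a median log2 change of -0.53. Akr1d1, the bile acid-forming steroid reductase, fell from 29.9 ± 4.20 to 14.8 ± 4.66 FPKM (log2 change -1.01, adjusted p = 0.00291 by limma), and Akr7a5, an aflatoxin aldehyde reductase, from 112 ± 7.97 to 77.2 ± 12.0 FPKM. Akr1e1, at the end of the chromosome 13 cluster, fell from 9.60 ± 1.43 to 6.32 ± 0.423 FPKM. Akr1b3, the aldose reductase of the polyol pathway, rose from 5.48 ± 1.28 to 9.91 ± 1.35 FPKM (log2 change 0.76, adjusted p = 0.00299), and Akr1b10 from 1.36 ± 0.344 to 2.06 ± 0.236 FPKM. The called genes of the chromosome 6 cluster were therefore all higher, Akr1b8, Akr1b3 and Akr1b10, while in the chromosome 13 cluster Akr1c18 was higher and 7 genes were lower. Akr1c21, Kcnab1, Kcnab2 and Kcnab3 averaged at most 0.325 FPKM in each group and were not tested.

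Under pair-feeding Akr1b3 was also higher in Aldh2-/- livers (11.0 ± 1.42 against 4.39 ± 1.60 FPKM, adjusted p = 0.0111 by limma). Akr1d1 was lower (9.17 ± 2.41 against 17.9 ± 5.44 FPKM, log2 change -0.88, adjusted p = 0.0361), and the other 4 genes tested were not called. Over all genes tested, 26.0% were called higher and 2.41% lower. The alternatives were run for the 9 genes only, so the calls of these further genes were not checked in that way. Akr1d1 was thus called lower in Aldh2-/- livers on both diets, and the difference between its effects was -0.13 (adjusted p = 0.791 by limma). For Akr1c12 that difference was -1.23 (adjusted p = 0.00026), for Akr7a5 -0.81 and for Akr1e1 -0.76, all called, beside 29.0% of all genes called lower. Akr1c12 was at 41.6 to 57.3 FPKM in pair-fed Aldh2-/- and 32.1 to 42.3 FPKM in pair-fed WT livers.

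Other enzyme groups were counted under ethanol to place the 9 genes. Over all genes tested, 21.5% were called higher and 15.7% lower. Of 25 other carbonyl reductases and aldehyde enzymes tested, 16 were lower and 2 higher in Aldh2-/- livers (median log2 change -0.73), including the alcohol dehydrogenase Adh4 (0.383-fold), the aldehyde oxidase Aox1 (0.453-fold) and the glyoxalase Glo1 (0.507-fold). Among 23 steroid reductases and dehydrogenases, 11 were lower and 2 higher (median -0.53), with Hsd17b6 at 31.8 against 151 FPKM and Hsd3b3 at 8.45 against 23.3 FPKM in the mean, while the oestrogen sulfotransferase Sult1e1 rose from 0.634 to 20.1 FPKM. Targets of the nuclear receptors CAR, PXR and FXR were lower in 8 of 16 and higher in none (median -0.66). The glucuronate, ascorbate and polyol pathway, in which Akr1a1 works, had 5 of 11 genes lower and 1 higher, among them Xylb (0.553-fold), Ugdh (0.426-fold) and Sord (0.461-fold).

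Targets of NRF2, the transcription factor of the antioxidant response, did not move as a block. Of 24 tested, 3 were higher and 8 lower in ethanol-fed Aldh2-/- livers (median log2 change -0.15), beside 21.5% and 15.7% of all genes, with the haem oxygenase Hmox1 5.20-fold higher but Gclc, the catalytic subunit of glutathione synthesis, 0.409-fold. Under pair-feeding 9 of 23 were higher and 2 lower, including the NADPH-forming enzymes Pgd (2.10-fold) and Me1 (2.23-fold) and the transketolase Tkt (1.96-fold). The same lists under pair-feeding, where 26.0% of all genes were called higher and 2.41% lower, gave 5 higher and 1 lower of 25 carbonyl enzymes, 4 higher and 8 lower of 22 steroid enzymes, 2 higher and 4 lower of 14 nuclear receptor targets and 1 higher and 1 lower of 10 glucuronate pathway genes.

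Cell type markers moved with the genotype effect under ethanol. Summed over 8 hepatocyte markers, the level was 55017 to 64610 FPKM in Aldh2-/- and 66113 to 83031 FPKM in WT livers, and none of the 8 was called. Macrophage and Kupffer cell markers were higher in 8 of 9 (433 to 889 against 173 to 209 FPKM in sum), endothelial markers in 6 of 6 (75.2 to 113 against 32.2 to 70.1 FPKM) and stellate and myofibroblast markers in 6 of 7 (166 to 300 against 86.6 to 186 FPKM). Blood markers were higher in 4 of 4 (407 to 1152 against 104 to 307 FPKM), proliferating cell markers in 4 of 4 (6.49 to 17.1 against 1.20 to 2.03 FPKM) and cholangiocyte markers in 3 of 5, where 21.5% of all genes were called higher. Their part in the changes of the 9 genes was not tested. In pair-fed livers the macrophage sum was 261 to 347 FPKM in Aldh2-/- and 114 to 180 FPKM in WT, with 4 of 9 markers higher, beside 26.0% of all genes. Proliferating cell markers were higher in 3 of 4 (20.4 to 83.5 against 7.51 to 16.5 FPKM), while 2 of 8 hepatocyte markers were lower, beside 2.41% of all genes. The marker calls were not recomputed after rescaling.

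The genes whose levels were most like each member over the 15 libraries, by Pearson r of log2(FPKM + 1) among 11148 genes, differed between members. Akr1c20 was most like Ddah1 (r = 0.973) and Atp8b1 (0.964), and Akr1c14 was most like Necab1 (0.971) and 1600014C10Rik (0.957). Akr1c13 was most like Psmd5 (0.976) and Eif4g1 (0.973), Akr1c19 like Tmem33 (0.971) and Sec22c (0.965), and Akr1c6 like 0610040J01Rik (0.952) and Prep (0.941). Akr1b8 was most like Kcnk6 (0.975) and Clec1b (0.971), Akr1c18 like Ikbip (0.9498) and Gpx7 (0.948), and Akr1a1 like Msra (0.944) and Tmbim6 (0.942). Akr1b7 had the least close partners, Tesc (0.81) and the adrenal gene Hsd3b1 (0.786). These values describe 15 libraries that share groups and tables.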

How the data were processed

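The submitters' processing notes name fastp, HISAT2 and HTSeq as tools and mm10 as the genome build; versions and annotation were not given in the sources used here. The authors deposited FPKM values in 2 tables, 1 per diet, so the counts behind each value are unknown and an adjustment for gene length or library total made by the authors cannot be redone. FPKM is relative within a library, and a few abundant transcripts can move all other values.

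Comparisons were fitted with limma 3.58.1 (R 4.3.3; lmFit and eBayes with a trend) on log2(FPKM + 1) over all genes that averaged 0.5 FPKM or more in the libraries fitted. The pseudocount of 1 understates the change of low genes. How many of all genes had groups without overlap was not counted, so statements on overlap describe single genes only. Genotype comparisons used the 2 groups of 1 table, and the diet comparisons and the difference between genotype effects used all 4 groups. The procedure was tested on simulated data. Identities and motifs were computed with Biopython 1.88.

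The genes and lists were chosen with earlier results of these data known. Named genes are the 9 members, Aldh2, all other aldo-keto reductases found, up to 3 genes with the smallest p per list, and the 2 genes most like each member. The adrenal and adipose markers are named as well. Alternatives were another pseudocount (0.1), filter (none, or 2 FPKM), scaling, variance model, set of groups or replicate block, and leaving out libraries. Leaving out those with adrenal transcripts was chosen after seeing the data.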

Additional observations from a re-analysis of the deposited data

Results flagged for a closer look

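Each of the 9 genes was checked in ethanol-fed Aldh2-/- and in ethanol-fed WT livers (4 or 5 libraries), 18 checks in all. In 3 of them 1 library stood far from the others. The checks share the same libraries, so this count cannot be set against a chance rate. Akr1b7 was at 57.7 FPKM in ethanol-fed WT 7, against 1.30 to 6.20 FPKM in the other 4 libraries of that group. WT 7 was also the library with the highest sum of adrenal markers, 193 FPKM. Akr1c13 was at 31.6 FPKM in ethanol-fed WT 5, below the 48.6 to 53.2 FPKM of the other 4. Akr1c19 was at 5.57 FPKM in ethanol-fed Aldh2-/- 90, below the 11.3 to 12.3 FPKM of the other 3. WT 5 and Aldh2-/- 90 had the largest mitochondrial shares of their groups, 13.6% and 18.2%, and the part of that share in the 2 low values was not tested.

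For 7 genes the genotype effect differed between the diets (limma on all 4 groups, adjusted p under 0.05), 6 with a negative and 1 with a positive difference. Over all 11157 genes tested, 29.0% were called lower and 8.06% higher, with a median of -0.22. Subtracting the log2 effect in pair-fed livers from that in ethanol-fed livers gave -2.51 for Akr1c20, -2.39 for Akr1c19, -2.08 for Akr1c13, -1.72 for Akr1c6, -1.70 for Akr1c14 and -0.53 for Akr1a1. For Akr1b8 the result was 1.35. The Akr1a1 call was lost in 7 of 26 alternatives.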

How the results depend on the processing

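Each of the 45 changes of the 9 genes was recomputed under up to 26 alternatives, 927 in all, of which 819 kept direction and call, 79 lost the call, 10 gained one and 19 reversed the sign; 24 changes kept both in every alternative run. The reversed values all belong to changes that were not called. Some alternatives are the same fit and were counted each time, as without WT 20 in the pair-fed genotype comparison. Under pair-feeding, median-ratio rescaling turned the log2 genotype change of Akr1a1 to -0.16 and that of Akr1c14 to -0.26, and Akr1c14 was also at -0.23 after quantile normalization, -0.028 with a common sum without mitochondrial genes and -0.071 to 0.17 with 1 library left out (lowest without WT 19). Akr1b7 ran from -0.89 to 0.50 with 1 library left out, 0.50 being the value without WT 20, also where WT 7 or WT 7, WT 12 and Aldh2-/- 90 were left out with it. In the WT diet change, Akr1c14 was at -0.084 after median-ratio rescaling, -0.14 after quantile normalization, -0.065 with the replicate block and -0.12 to 0.091 with 1 library left out (below 0 without WT 12 or WT 19), and Akr1b7 at -0.12 (without WT 7) to 1.51. In the Aldh2-/- diet change, Akr1c19 was at -0.024 with the replicate block and -0.21 to 0.26 with 1 library left out (below 0 without Aldh2-/- 86, 89, 96 or 2).

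Members called higher under ethanol fell from 2 to 1 with no filter, with robust variances or without the 4 libraries highest in adrenal markers, a fit that called 1628 genes against 4098 with all libraries. Under pair-feeding they fell from 4 to 1 with no filter (1103 genes called, against 3162), median-ratio rescaling (647), quantile normalization (654), a common sum without mitochondrial genes (1875) or without WT 20 (474), and to 2 in a fit of all 4 groups. In the difference between genotype effects, 2698 genes were called without WT 7 and WT 20 and 1771 without the 4 libraries, against 4134. In the WT diet change, members called higher fell from 5 to 3 after median-ratio rescaling, with the replicate block or without WT 7 and WT 20 (2917 genes called, against 4584), and to 2 without the 4 libraries (2265); without WT 5 and Aldh2-/- 90, 1 was called lower. In the Aldh2-/- diet change they rose from 1 to 2 in a fit of these 2 groups and without the 2 or 4 adrenal-marked libraries. Leaving out 1 library at a time gave 1 to 2 members higher under ethanol, 1 to 5 under pair-feeding (294 to 2870 genes called), and 3 to 5 higher and 0 to 1 lower in the WT diet change.

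The sample descriptions also number the libraries from 1 up in each group, apart from the numbers in the titles (Aldh2-/- 86 and WT 5 are both 1). By these description numbers, correlations of same-numbered deviations between the genotypes ran from -0.086 to 0.245 under ethanol and -0.022 to 0.033 under pair-feeding. Differently numbered libraries and libraries of different diets were not compared in this way, so these values cannot decide whether the samples were paired. With 3 to 5 libraries a group, and depth known only in relative terms, small changes such as that of Akr1a1 are at the limit of what these data resolve.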
